A study of Homo sapiens with 9 samples.

Results

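LRRC61 and ZBED10P are a pair of genes at 7q36 on chromosome 7, the smaller lying inside an intron of the larger. They were chosen from measured values, because both were nearly silent in heterozygous and high in homozygous CHD7 mutant cells, and they are 2 of the 26240 genes with a row in the count table. Both belong to the 16837 genes that passed the filter on low counts. RNA was sequenced from definitive endoderm, the progenitor layer of gut, liver and pancreas, differentiated from H9 cells, a widely used line of human embryonic stem cells. CHD7, a chromatin remodeller gene mutated in CHARGE syndrome, had been deleted by CRISPR editing. The groups were homozygous mutant (CHD7-/-), heterozygous mutant (CHD7+/-) and wild-type (CHD7+/+) cells, with 3 libraries each. All were H9 cells differentiated in vitro, and the labels do not say how many edited clones or separate cultures stand behind a genotype, so a clone and a genotype cannot be told apart. A p-value below therefore speaks for the variation among the sequenced libraries, part or all of which may be technical.

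LRRC61 encodes a protein with leucine-rich repeats, a repeat that folds into a curved surface for binding other proteins, and little is known of its function. ZBED10P belongs to the ZBED genes, which descend from the transposase of hAT DNA transposons captured by vertebrate genomes. RefSeq lists it as a transcribed pseudogene, while GENCODE release 29 lists the same Ensembl gene as ZBED6CL with a coding region. Genes with CpG-rich promoters can be held silent by DNA methylation or histone marks, and such states can differ between clones of a stem cell line.

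Both genes are read from the plus strand of GRCh38. LRRC61 (ENSG00000127399) spans chromosome 7 from 150322639 to 150338150 in GENCODE release 29. Its 777-base coding region lies wholly in the last exon, from 150336862 to 150337638, and the earlier exons are untranslated. ZBED10P (ENSG00000188707) is a single exon from 150329789 to 150332721, inside the intron before that last exon. The exons of the genes share 0 bases, and 3 of the 5 annotated LRRC61 transcripts run across ZBED10P. Reads from unspliced LRRC61 RNA in this intron and reads from a ZBED10P transcript cannot be told apart in counts per gene. ACTR3C, an actin-related protein gene on the minus strand, overlaps the first 1087 bases of LRRC61 and shares 390 exonic bases with it. RARRES2, which encodes the chemoattractant chemerin, ends 166 bases beyond LRRC61 on the minus strand.

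**Figure D1:**
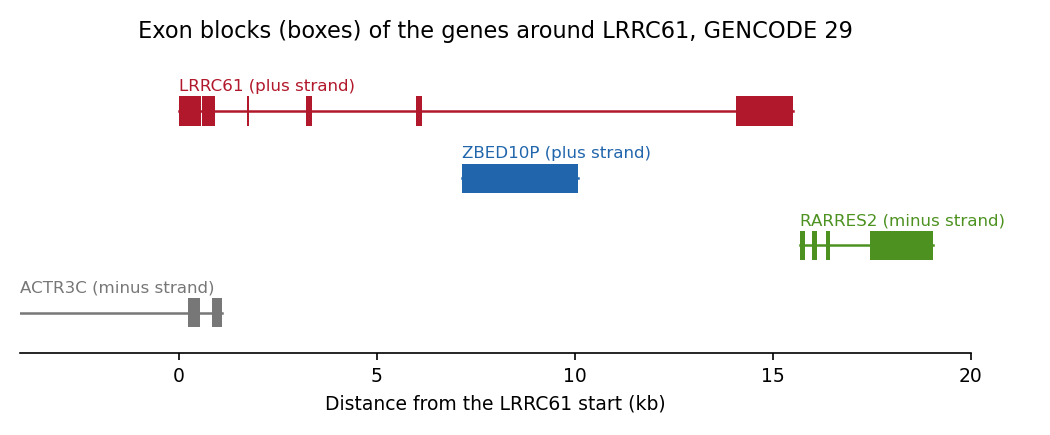
Exon blocks (boxes) and gene spans (lines) of LRRC61, ZBED10P, RARRES2 and ACTR3C, drawn to scale against the distance from the LRRC61 start in kb, with ACTR3C cut off at the left edge. ZBED10P sits inside the last LRRC61 intron, ACTR3C overlaps the LRRC61 start and RARRES2 lies just past its end.

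The 250 bases before the RefSeq start of LRRC61 (chr7:150323105-150323354, plus strand, GRCh38.p14) are shown as the sequence before that annotated start. RefSeq starts LRRC61 at 150323355, whereas the GENCODE interval given above begins further upstream and contains this window. The matching bases before an ACTR3C start (chr7:150323546-150323795, minus strand) are shown beside them, since RefSeq starts ACTR3C, on the opposite strand, 190 bases beyond its LRRC61 start. Sequences are from RefSeq, 5′ to 3′, with CG dinucleotides, the sites of DNA methylation, in capitals.
LRRC61: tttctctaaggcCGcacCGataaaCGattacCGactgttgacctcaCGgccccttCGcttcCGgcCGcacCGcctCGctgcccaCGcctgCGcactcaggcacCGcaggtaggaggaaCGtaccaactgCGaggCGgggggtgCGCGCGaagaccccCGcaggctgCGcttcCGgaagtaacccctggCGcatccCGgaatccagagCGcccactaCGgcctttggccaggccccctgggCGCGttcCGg
ACTR3C: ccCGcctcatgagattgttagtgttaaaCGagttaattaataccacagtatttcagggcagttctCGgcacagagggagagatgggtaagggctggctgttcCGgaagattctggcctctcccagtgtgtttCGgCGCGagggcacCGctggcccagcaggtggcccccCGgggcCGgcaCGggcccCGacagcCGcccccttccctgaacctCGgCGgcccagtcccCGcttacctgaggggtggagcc

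The LRRC61 window holds 29 CG dinucleotides and is 68.0% G or C. Of 35116 RefSeq promoter windows of this length, 14.1% hold as many, and the median window holds 11 and is 58.0% G or C. The ACTR3C window holds 16, a number reached in 41.0% of windows. The motif CCGGAAG, the core of an ETS-family site, were found on either strand 3 times at 2 places in the LRRC61 window, since at the second place both strands match and overlap. They were found in 8.52% of all windows. The TATA motif TATAAA was not found on either strand of the LRRC61 window and occurs in 10.7% of all windows. The CCAAT box was not found there either and occurs in 32.0%. The GC box GGGCGG was also not found and occurs in 42.6%. These matches describe the letters and do not show a bound site.

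Totals ran from 11854173 counts in homozygous replicate 1 to 37519729 in wild-type replicate 1. The CHD7 transcript followed the labels, at 56.1, 43.0 and 55.5 CPM (counts scaled to library size, with TMM factors) in homozygous replicates 1, 2 and 3, at 110.4, 130.5 and 129.2 CPM in heterozygous replicates and at 194.9, 194.9 and 189.2 CPM in wild-type replicates. All 7 definitive endoderm markers were detected in every library, their summed level being 6918 to 8038 CPM in homozygous, 8583 to 9620 CPM in heterozygous and 10278 to 11085 CPM in wild-type cells. The summed level of GATA3 and TFAP2C, the 2 trophectoderm markers with a row of the 3 listed, was 22.8 to 29.5 CPM in homozygous, 12.7 to 13.7 CPM in heterozygous and 9.17 to 11.7 CPM in wild-type cells. The 3 pluripotency markers summed to 35.7 to 134, 130 to 229 and 69.3 to 115 CPM in these groups, the 4 mesoderm markers to 18.9 to 32.5, 30.5 to 38.0 and 41.0 to 55.9 CPM, and the 3 neuroectoderm markers to 1.17 to 1.92, 1.31 to 1.63 and 0.858 to 1.08 CPM. SOX1 was at 0 in every homozygous and heterozygous library and HAND1 in every heterozygous library. Some sums rested largely on a single gene. CER1 averaged 4630, 6124 and 7245 CPM in homozygous, heterozygous and wild-type cells, against 681, 653 and 717 CPM for GATA6. By mean, KDR was lowest in homozygous cells (23.5, 33.6 and 48.6 CPM) and TBX6 highest (1.47, 1.33 and 1.03 CPM). For both, homozygous and heterozygous libraries overlapped. Mean OTX1 was highest in homozygous cells (1.30, 1.11 and 0.413 CPM), with the same overlap, and mean PAX6 lowest (0.199, 0.333 and 0.461 CPM). In homozygous against wild-type cells mean POU5F1 was higher (90.0 and 69.6 CPM), though the groups overlapped. It stood at 122, 114 and 33.5 CPM in homozygous replicates 1, 2 and 3 and at 95.3, 56.1 and 57.4 CPM in wild-type replicates. Mean NANOG was lower (4.22 and 10.4 CPM), with every homozygous library below every wild-type library. The part of these shifts in the levels of LRRC61 and ZBED10P was not tested.

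LRRC61 had 81, 242 and 111 counts in homozygous replicates 1, 2 and 3, 0, 2 and 0 counts in heterozygous replicates 1, 2 and 3, and 31, 26 and 21 counts in wild-type replicates 1, 2 and 3. Scaled to library size, these were 6.77, 8.01 and 5.53 CPM in homozygous cells, 0, 0.0731 and 0 CPM in heterozygous cells and 0.831, 0.853 and 0.872 CPM in wild-type cells. All homozygous libraries were high, all wild-type libraries held a low level, and heterozygous libraries were at or near 0. A count of 0 allows up to 0.0977 CPM in heterozygous replicate 1 and 0.127 CPM in heterozygous replicate 3, below every wild-type value. In bulk RNA, fewer cells that express a gene and less of its RNA per cell cannot be told apart.

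The mean of LRRC61 was 6.77 ± 1.24 CPM in homozygous, 0.0244 ± 0.0422 CPM in heterozygous and 0.852 ± 0.0202 CPM in wild-type cells (SD, n = 3 each). At the wild-type rate, 69.4 LRRC61 counts would fall in the heterozygous libraries together, where 2 were found. The same rate gives 52.8 counts in the homozygous libraries, where 434 were found. Heterozygous totals, from 23488722 to 30581464 counts, lay within the range of the other libraries.

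ZBED10P had 86, 171 and 111 counts in homozygous replicates 1, 2 and 3, 2, 0 and 1 counts in heterozygous replicates 1, 2 and 3, and 16, 5 and 12 counts in wild-type replicates 1, 2 and 3. Its level was 7.19, 5.66 and 5.53 CPM in homozygous cells, 0.0651, 0 and 0.0424 CPM in heterozygous cells and 0.429, 0.164 and 0.498 CPM in wild-type cells. The order of the genotypes was the same as for LRRC61, and the groups did not overlap. The gap between the heterozygous and wild-type groups was narrow, with heterozygous replicate 1 at 2 counts and wild-type replicate 2 at 5. Means were 6.13 ± 0.920 CPM in homozygous, 0.0358 ± 0.0330 CPM in heterozygous and 0.364 ± 0.176 CPM in wild-type cells (SD, n = 3 each).

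**Figure D2:**
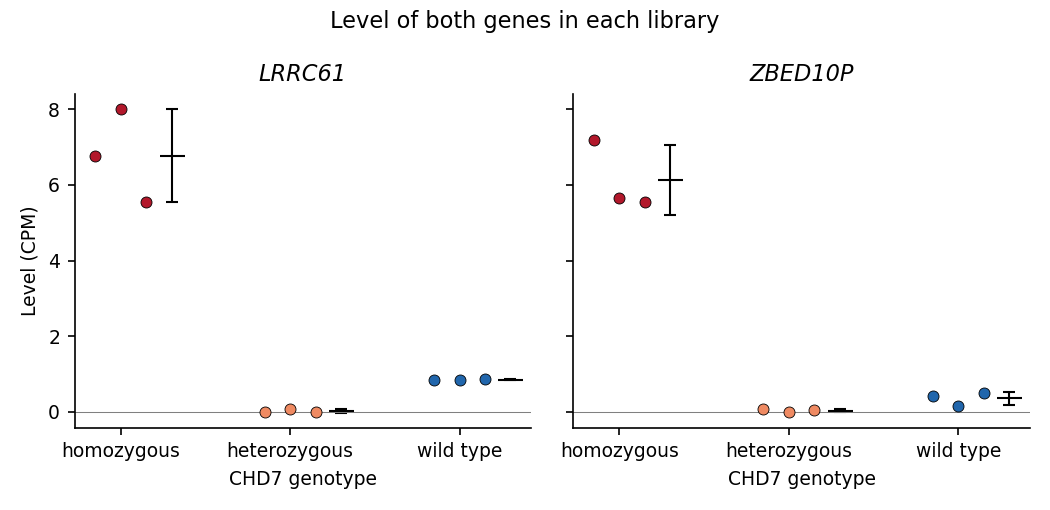
Level in CPM of LRRC61 (left) and ZBED10P (right) in each library, by CHD7 genotype, with the mean and SD of 3 libraries as the bar beside the points. The homozygous libraries lie between 5.53 and 8.01 CPM, while the heterozygous libraries lie at or near 0 and the wild-type libraries below 1 CPM.

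The non-overlapping order of homozygous over wild type over heterozygous, which both genes showed, was found in 25 of the 16837 tested genes (0.148%). Because near silence in heterozygous cells and a high level in homozygous cells chose the pair, all differences between genotypes are given as a description, with no test, and nothing is read from this share. In homozygous over heterozygous cells the log2 fold change was 7.86 (SE 0.46) for LRRC61 and 7.20 (SE 0.49) for ZBED10P, the 5th and 7th highest of all tested genes. For heterozygous over wild-type cells it was -4.87 (SE 0.58) for LRRC61 and -3.14 (SE 0.68) for ZBED10P, the 16th and 23rd lowest. ZBED10P entered that ranking through the homozygous libraries, since it failed the filter when heterozygous and wild-type libraries were fitted alone. For homozygous over wild-type cells the log2 fold change was 2.99 (SE 0.27) for LRRC61 and 4.06 (SE 0.34) for ZBED10P, the 39th and 23rd highest. The 3 comparisons share libraries and are not independent of each other.

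Because a handful of counts stands behind the heterozygous level, folds against it were also taken from summed counts, with exact 95% intervals that cover counting error only. LRRC61 was 285-fold higher in homozygous than in heterozygous cells (interval 78.4 to 2359) on 434 and 2 counts. ZBED10P was 161-fold higher (54.7 to 784) on 368 and 3 counts. Wild-type over heterozygous ratios were 34.7 (9.28 to 291) for LRRC61 on 78 and 2 counts and 9.78 (3.07 to 49.8) for ZBED10P on 33 and 3 counts. In homozygous over wild-type cells the ratio was 8.21 (6.44 to 10.6) for LRRC61 and 16.5 (11.5 to 24.3) for ZBED10P, with the spread between libraries not included. Both LRRC61 heterozygous counts came from replicate 2. Without that library LRRC61 was at least 126-fold higher in homozygous than in heterozygous cells, with the floor set at 3 counts over the remaining heterozygous libraries. This bound takes the homozygous counts as exact and leaves out the only heterozygous library with LRRC61 counts. Over all libraries the lower limit stays at 78.4-fold.

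The split of counts between the pair was not the same in every group, which is given as a description with no test. LRRC61 took 48.5%, 58.6% and 50.0% of the counts of both genes in homozygous replicates 1, 2 and 3, against 66.0%, 83.9% and 63.6% in wild-type replicates 1, 2 and 3. Every homozygous share lay below every wild-type share. Over summed counts the share was 54.1% in homozygous cells (exact 95% interval 50.6 to 57.6, 802 counts) and 70.3% in wild-type cells (60.9 to 78.6, 111 counts). These intervals pool libraries and cover counting error only. Some intervals of single libraries overlapped, as in homozygous replicate 2 (53.7 to 63.4) and wild-type replicate 1 (50.7 to 79.1). That of wild-type replicate 2 (66.3 to 94.5) lay above every homozygous interval. The 5 counts of the heterozygous libraries leave the share there undetermined (5.27 to 85.3). In CPM, LRRC61 was highest in homozygous replicate 2 and ZBED10P in homozygous replicate 1. Within homozygous replicate 1 the genes were close, at 81 counts for LRRC61 and 86 for ZBED10P (exact 95% interval of the LRRC61 share 40.7 to 56.3).

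**Figure D3:**
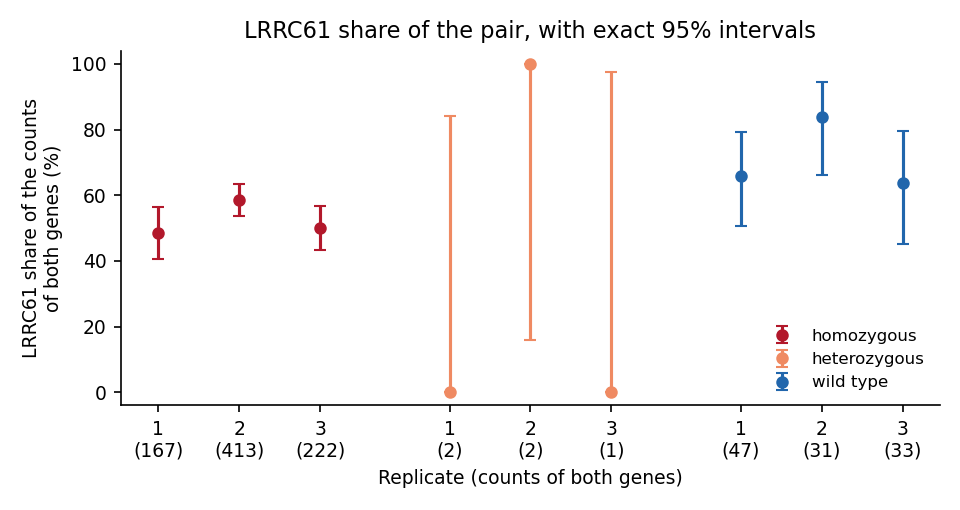
LRRC61 share (%) of the counts of LRRC61 and ZBED10P together in each library, with exact 95% binomial intervals (counting error only) and the counts of both genes in parentheses. Homozygous shares lie between 48.5% and 58.6% and wild-type shares between 63.6% and 83.9%, while heterozygous shares rest on 1 or 2 counts.

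Per kb of exon, the levels of the pair were close in homozygous cells and apart in wild-type cells. LRRC61 has 2735 and ZBED10P 2933 exonic bases in GENCODE release 29, which may not be the release the authors counted with. On this scale LRRC61 stood at 2.48 ± 0.453 and ZBED10P at 2.09 ± 0.314 CPM per kb in homozygous cells (SD, n = 3). In wild-type cells the levels per kb were 0.312 ± 0.00740 for LRRC61 and 0.124 ± 0.0602 for ZBED10P (SD, n = 3).

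ACTR3C, the gene that overlaps the LRRC61 start in antisense, had 2, 9 and 9 counts in homozygous replicates 1, 2 and 3, 1, 0 and 0 counts in heterozygous replicates and 0, 3 and 1 counts in wild-type replicates. It failed the filter on low counts. By summed counts it was 26.3-fold higher in homozygous than in heterozygous cells (exact 95% interval 4.20 to 1088), on 20 and 1 counts. Against wild-type cells it was 7.38-fold higher in homozygous cells (2.47 to 29.7), on 20 and 4 counts. Both intervals cover counting error only. With no filter, its log2 fold change by edgeR's quasi-likelihood test was 4.24 in homozygous over heterozygous cells (SE 1.13, adjusted p = 0.0610). In homozygous over wild-type cells it was 2.69 (SE 0.93, edgeR adjusted p = 0.109). Neither passed the threshold of 0.05. No source used here states the strand setting of the counting, and reads of ACTR3C and of LRRC61 in their shared exons cannot be told apart. The sense transcript ENSG00000261305, which overlaps the LRRC61 end, had 2 counts over all 9 libraries.

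No tested gene around the pair showed a change as large as the pair's, and ACTR3C was not among those tested. The pair was chosen for its large differences, so nothing is read from this gap. Of 41 other genes with a row within 1 Mb of LRRC61, 27 were tested. In homozygous over heterozygous cells 1 of the 27 was called higher and 0 lower, where 0.986% of all tested genes were called higher and 1.22% lower (edgeR's quasi-likelihood test, Benjamini-Hochberg adjusted over all tested genes). In heterozygous over wild-type cells 0 were called, against 0.82% of all tested genes called higher and 1.04% called lower. DESeq2 and limma-voom also called 0 there, and 1 neighbour had an unadjusted p below 0.05. In homozygous over wild-type cells 1 was called higher and 0 lower, against 3.5% and 4.18% of all tested genes. The neighbours' log2 fold changes lay between -0.37 and 0.88, between -0.28 and 0.54, and between -0.43 and 1.15 in these comparisons.

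The called gene was NOS3, endothelial nitric oxide synthase, 653 kb beyond LRRC61. It stood at 5.52, 5.40 and 5.29 CPM in homozygous replicates 1, 2 and 3, at 3.06, 3.14 and 2.54 CPM in heterozygous replicates and at 2.79, 1.74 and 2.78 CPM in wild-type replicates. Homozygous libraries lay above all others, and the heterozygous and wild-type groups overlapped, so NOS3 did not follow the heterozygous silence of the pair. It rose in homozygous over wild-type cells (log2 fold change 1.15, SE 0.20, edgeR adjusted p = 0.00395). It also rose in homozygous over heterozygous cells (0.88, SE 0.20, edgeR adjusted p = 0.0417). That second call was lost without any single homozygous or heterozygous library or wild-type replicate 3 (edgeR adjusted p = 0.0622 to 0.124).

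The nearest tested genes bracket the pair closely on the downstream side. RARRES2 varied between libraries, at 26.4, 33.6 and 10.9 CPM in homozygous replicates 1, 2 and 3, 26.4, 19.7 and 13.8 CPM in heterozygous replicates and 18.6, 11.5 and 12.5 CPM in wild-type replicates. The groups overlapped, and it was not called in homozygous over wild-type cells (0.73, SE 0.34, edgeR adjusted p = 0.217). It was called when homozygous replicate 3 was left out (1.08, adjusted p = 0.0128). REPIN1, a zinc-finger gene 30.0 kb downstream, stood at 87.9 ± 5.85 CPM in homozygous, 82.4 ± 2.43 CPM in heterozygous and 87.1 ± 1.96 CPM in wild-type cells (SD, n = 3). ZNF775, another zinc-finger gene 41.2 kb downstream, stood at 17.5 ± 1.59, 12.5 ± 2.23 and 13.4 ± 0.510 CPM in these groups (SD, n = 3). Its log2 fold change in homozygous over heterozygous cells was 0.49 (SE 0.14), which edgeR did not call (adjusted p = 0.0912) and DESeq2 did (adjusted p = 0.0235). Upstream, the nearest tested gene was the proton pump subunit gene ATP6V0E2, 431 kb away, at 0.24 in homozygous over heterozygous cells (adjusted p = 0.342). The other four of the nearest tested upstream genes lay on both sides of 0. ATP6V0E2-AS1, antisense to it, stood at -0.22 (adjusted p = 0.688) and the zinc-finger gene ZNF467 at -0.31 (adjusted p = 0.676). The zinc-finger gene ZNF862 stood at 0.22 (adjusted p = 0.558) and SSPOP at 0.16 (adjusted p = 0.757). Downstream, ENSG00000284691 stood at 0.34 (adjusted p = 0.463) and the potassium channel gene KCNH2 at -0.37 (adjusted p = 0.567).

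As a group, the neighbours within 1 Mb leaned the way the pair went, by far less. In homozygous over heterozygous cells 23 of the 27 had a log2 fold change above 0, with a median of 0.22 against 0.01 over all tested genes. In heterozygous over wild-type cells 8 of 27 lay above 0, with a median of -0.08 against 0.00 over all. In homozygous over wild-type cells 21 of 27 lay above 0, with a median of 0.11 against 0.01 over all. Of all tested genes, 51.0%, 50.8% and 51.4% lay above 0 in these comparisons. Within 2 Mb, 33, 19 and 35 of 49 tested neighbours lay above 0, in the same order, with medians of 0.15, -0.05 and 0.09. Within 250 kb it was 4, 1 and 4 of 4. These counts are a description without a test. Each comparison shares libraries with both others, so the counts are not independent of each other.

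**Figure D4:**
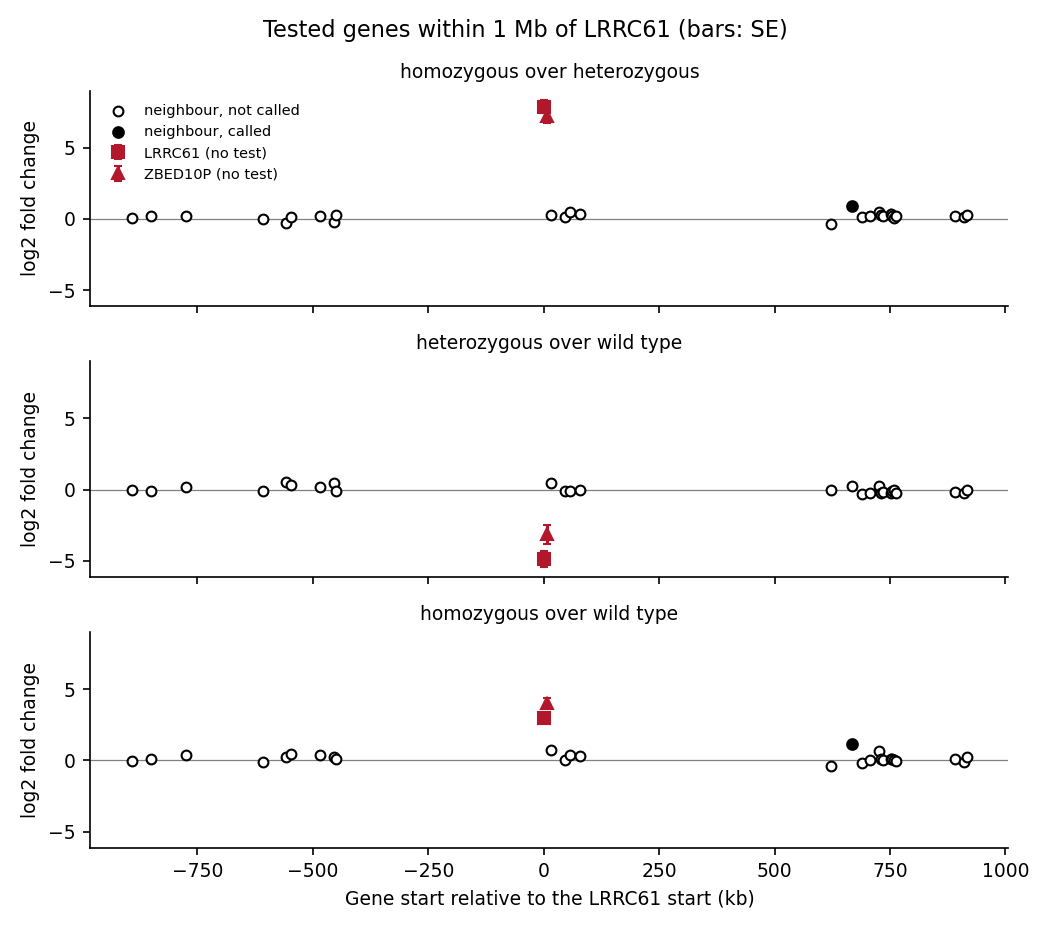
Log2 fold change of the 27 tested neighbours (circles, filled where called) and of LRRC61 and ZBED10P (red, with SE bars) against the distance of the gene start from the LRRC61 start in kb, for each comparison. Both genes, chosen for their large differences, stand far from the tested neighbours, whose values lie between -0.43 and 1.15. NOS3 is the filled circle, and ACTR3C, which was not tested, is not drawn.

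Relatives of the pair elsewhere in the genome were also examined. Of the ZBED genes other than ZBED10P, 6 had a row and 4 were tested. ZBED3, which encodes an Axin-binding protein of the Wnt pathway, rose in homozygous over wild-type cells, at 14.2 ± 1.12 CPM against 9.54 ± 0.870 CPM (SD, n = 3; log2 fold change 0.58, SE 0.13, edgeR adjusted p = 0.0170). The call was lost without wild-type replicate 1 (0.0606) or 2 (0.0967). ZBED1, ZBED4 and ZBED5 were not called in any comparison.

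Of 54 other genes named LRRC with a number, 41 were tested. In homozygous over wild-type cells 1 rose and 2 fell, in heterozygous over wild-type cells 1 rose and 0 fell, and in homozygous over heterozygous cells 0 were called, while 6 had an unadjusted p below 0.05 and DESeq2 and limma-voom called 0. These shares lie near the background of 7.68%, 1.86% and 2.21% of all tested genes called. LRRC34 rose to 4.44 ± 1.04 CPM in homozygous cells, against 1.23 ± 0.319 CPM in wild-type cells (SD, n = 3; 1.82, SE 0.25, edgeR adjusted p = 0.000569). In heterozygous cells it stood at 3.17 ± 0.327 CPM (1.36 over wild type, SE 0.25, edgeR adjusted p = 0.0123), so that it was higher where LRRC61 was nearly silent. This second call was lost without wild-type replicates 2 or 3 or heterozygous replicates 1 or 2 (0.0539 to 0.0823). LRRC3 (-0.55, SE 0.14, edgeR adjusted p = 0.0298) and LRRC58 (-0.50, SE 0.14, edgeR adjusted p = 0.0498) fell in homozygous over wild-type cells. LRRC3 was at 102, 92.0 and 139 CPM in homozygous replicates 1, 2 and 3, at 111, 113 and 122 CPM in heterozygous replicates and at 137, 174 and 176 CPM in wild-type replicates. In heterozygous over wild-type cells it stood at -0.50 (SE 0.14, edgeR adjusted p = 0.114), which was called with DESeq2 (0.0421), in the 6-library fit (0.0207), with the replicate block (0.0357) and without homozygous replicate 3 (0.0184). LRRC58 was also called in homozygous over heterozygous cells without homozygous replicate 3 (-0.56, adjusted p = 0.0403). Both calls in homozygous over wild-type cells were lost when the 6 homozygous and wild-type libraries were fitted alone (0.0591 and 0.0668). The LRRC3 call was also lost without wild-type replicates 2 or 3, heterozygous replicate 2 or homozygous replicates 1 or 2 (0.0551 to 0.136). The LRRC58 call was lost without any single library but heterozygous replicate 3 or homozygous replicate 3 (0.0547 to 0.201), and with other scalings or a stricter filter (0.0540 to 0.0552).

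Likeness to LRRC61 was measured as the root-mean-square difference between log2(CPM + 0.5) values over the 9 libraries, each gene centred on its own mean. ZBED10P was the nearest of all tested genes, at 0.37. Both genes were chosen for the same pattern in these libraries, so this nearness is a description and nothing is read from it. The next were ASPG, an asparaginase gene on chromosome 14 (0.48), ZNF469 on chromosome 16 (0.72), the synaptotagmin gene SYT11 on chromosome 1 (0.73), the zinc-finger gene ZNF772 on chromosome 19 (0.77) and the glutaminyl cyclase gene QPCT on chromosome 2 (0.77). From ZBED10P, ASPG was nearer (0.35) than LRRC61 (0.37). Wild-type levels differed among them. ASPG was at 4.24 ± 1.01 CPM in homozygous, 0.0806 ± 0.0713 CPM in heterozygous and 0.227 ± 0.0905 CPM in wild-type cells (SD, n = 3). ZNF469 was at 6.33 ± 1.47, 0.171 ± 0.0734 and 0.0496 ± 0.0541 CPM in these groups (SD, n = 3), and so was near 0 in both heterozygous and wild-type cells. ZNF772, at 2.46 ± 0.469, 0.131 ± 0.0411 and 1.10 ± 0.0759 CPM (SD, n = 3), held the order of the pair with a higher wild-type level. With a pseudocount of 0.1 or 1 CPM, or with ZBED10P in place of LRRC61, 3 of these 5 genes stayed among the nearest 5.

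**Figure D5:**
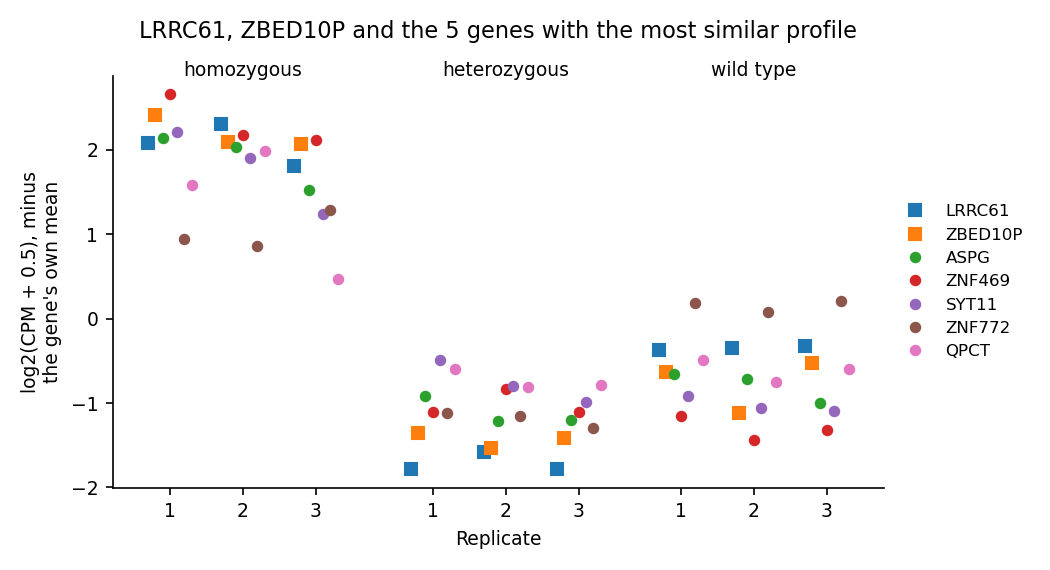
Centred log2(CPM + 0.5) of LRRC61, ZBED10P (squares) and the 5 genes with the most similar profile (circles) in each library, by genotype, with points of a library spread sideways for legibility. All 7 genes are highest in homozygous cells, and in every wild-type library ZNF772 is the highest of them.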

How the data were processed

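The table the authors deposited holds unnormalized counts of reads for each Ensembl gene in each library. The submitters' processing notes name the build hg38 and, as tools, HTSeq, HISAT2, SAMtools, Trimmomatic and FastQC. Their versions, the strand setting and the annotation release are not given. Both genes, the lists and the motifs were chosen with earlier results of these data, or the sequence, in view. Symbols came from a table of Ensembl names (26177 of 26240 genes). Coordinates came from GENCODE release 29 on GRCh38, or from RefSeq for 40 genes, 25249 in all.

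In R 4.3.3 with edgeR 4.0.16, filterByExpr by genotype kept 16837 genes. Counts were scaled by TMM and fitted by the quasi-likelihood model on all 9 libraries with genotype as the factor, tests being two-sided with Benjamini-Hochberg adjustment and a threshold of 0.05. LRRC61 and ZBED10P were given no p-value. Intervals are exact, for counts conditional on their sum, and cover counting error only, as do floors of 3 counts, since reads are not independent molecules. Named genes are those overlapping LRRC61, the 5 nearest tested on each side, the called neighbours within 1 Mb, up to 8 called relatives and the 5 most similar profiles, some of which are given only as part of counts. Alternatives were other scalings, filters and windows, DESeq2 1.42.0, limma-voom (limma 3.58.1), 6-library fits, a replicate block and leaving out each library. No replicate pair agreed within sampling noise (chi-square per degree of freedom 2.65 to 33.5, the lowest between wild-type replicates 2 and 3).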

Additional observations from a re-analysis of the deposited data

How the results depend on the processing

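The direction of LRRC61 and ZBED10P held in all 3 comparisons under every alternative that gave a value. ZBED10P failed the filter in the 6-library fit of heterozygous and wild-type cells, which gave none. Leaving out 1 library, the LRRC61 log2 fold change ran from 7.27 to 10.47 in homozygous over heterozygous cells and from -7.48 to -4.28 in heterozygous over wild-type cells. The extremes of 10.47 and -7.48 came without heterozygous replicate 2, which held all its heterozygous counts.

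The number of called neighbours in homozygous over heterozygous cells (1) was 3 with DESeq2, 0 in the 6-library fit, 0 of 4 tested within 250 kb, 3 of 49 within 2 Mb (6.12%, against 2.21% of all tested genes) and 0 to 1 without single libraries. In homozygous over wild-type cells (1) it was 0 of 4 within 250 kb, 5 of 49 within 2 Mb (10.2%, against 7.68% of all tested genes) and 1 to 2 without single libraries. For the ZBED and LRRC relatives together, heterozygous over wild type (1) gave 3 with DESeq2, 3 in the 6-library fit and 0 to 3 without single libraries. Homozygous over wild type (4) gave 2 in the 6-library fit and 1 to 6 without single libraries, and homozygous over heterozygous (0) gave 0 to 1.

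Over all genes, homozygous over heterozygous (372 called) gave 849 with DESeq2, 177 in the 6-library fit and 141 to 377 without single libraries. Counts were 228 and 238 without wild-type replicates 2 and 3, 242 and 141 without heterozygous replicates 1 and 2, and 211 without homozygous replicate 2. Heterozygous over wild type (313) gave 574 with DESeq2, 604 in the 6-library fit and 130 to 624 without single libraries. Counts were 135 and 130 without wild-type replicates 2 and 3, 173 and 147 without heterozygous replicates 1 and 2, and 624 without homozygous replicate 3. Homozygous over wild type (1293) gave 651 to 2118, with 651 and 700 without wild-type replicates 2 and 3 and 2118 without homozygous replicate 3. The causes were not tested. Of 765 alternative values for named genes, 727 kept their side of the threshold, 31 lost a call, 7 gained one and 0 reversed.

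Same-numbered libraries had correlations of -0.19 to 0.24 between their deviations from the genotype means, and libraries with different numbers -0.43 to 0.36. With the replicate number as a block, 461 genes were called in homozygous over heterozygous cells, against 372 without it. The block gave 492 against 313 in heterozygous over wild-type cells, 2 of the 492 being relatives, and 1503 against 1293 in homozygous over wild-type cells. Whether replicate numbers pair the libraries is not settled by these values. In that fit LRRC61 stood at 7.86, -4.88 and 2.98 and ZBED10P at 7.25, -3.13 and 4.12 in the comparisons homozygous over heterozygous, heterozygous over wild type and homozygous over wild type.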

Other observations

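Besides LRRC61 and ZBED10P, 2 tested genes had at most 3 counts over the heterozygous libraries and at least 5 CPM in every homozygous library, which is the pattern LRRC61 and ZBED10P were themselves chosen for. They were the zinc-finger gene ZNF677 and the zinc-finger pseudogene ZNF826P, both on chromosome 19, named here after their values were seen. ZNF677 stood at 11.8, 8.44 and 9.67 CPM in homozygous replicates 1, 2 and 3, at 0 in every heterozygous library and at 10.2, 8.53 and 7.97 CPM in wild-type replicates. ZNF826P stood at 28.7, 20.6 and 25.0 CPM in homozygous replicates, at 0 in every heterozygous library and at 38.6, 36.7 and 33.5 CPM in wild-type replicates. In both genes the wild-type libraries were near or above the homozygous ones, unlike in LRRC61 and ZBED10P. Also picked by its values, ZC3HAV1L on chromosome 7 stood at 1.51 CPM in homozygous, 0 CPM in heterozygous and 0.0109 CPM in wild-type cells (means of 3 libraries). TRIM61, picked in the same way, stood at 0.410, 0 and 3.45 CPM in these groups.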
